A study of Mus musculus with 2 samples.

Results

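The genes described here are 8 of the so-called disallowed genes of the pancreatic beta cell: Ldha, Slc16a1, Hk1, Oat, Maf, Smad3, Acot7 and Rest. They were taken by name, as every gene probe that carries 1 of these symbols on both arrays, whatever its value. This gave 15 probes of 8 genes, out of 55681 probes under 34844 gene names. Of these, 11 probes of 6 genes were bright enough to be tested, of 22266 in all, and neither Slc16a1 nor Maf had a tested probe. Ldha and Hk1 had 3 probes each, Maf, Smad3 and Rest had 2 each, and Slc16a1, Oat and Acot7 had 1 each.

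Islets of control mice were compared with those of RbΔK7 knock-in mice, whose retinoblastoma protein (Rb) resists phosphorylation. The islets were released by collagenase injected through the bile duct, picked by hand and frozen at once. Samples were harvested independently, per the series' design text, and the labels state neither the strain nor the age of the mice, nor whether several mice were pooled. Each of 2 two-colour Agilent arrays carried 1 control sample in the green dye Cy3 and 1 mutant sample in the red dye Cy5, so that 2 control and 2 mutant samples gave 2 ratios of mutant over control, called array 1 and array 2 here after their replicate. Both arrays lay on 1 slide, the dyes were exchanged on 0 of the 2 arrays, and genotype and dye therefore cannot be told apart.

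Disallowed genes are housekeeping or widely expressed genes that most tissues transcribe and that mature beta cells keep at very low levels. A beta cell releases insulin in proportion to the glucose it oxidises. Lactate dehydrogenase A and the monocarboxylate transporter would let it make or take up lactate, and a hexokinase of high affinity would let it burn glucose when blood glucose is low, so their silence is held to keep insulin release tied to glucose. Stromal cells, endothelial cells and leukocytes of the islet express many of these genes, and in RNA of whole islets they are measured together with the beta cells.

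Each value below is the signal of a probe of 60 bases, and a probe reports only the stretch of transcript that it pairs with. Probes are named by their start in the transcript, as the files give it. The sequences of 5 probes are printed to show which stretches of Ldha, Hk1 and Rest, genes with several probes, were measured. They are written 5′ to 3′ in the sense of the transcript, each has at least 1 sense reading frame without a stop codon, and no letter is marked. The Ldha probes lie on the plus strand of chromosome 7 at chr7:54107294-54107353 and chr7:54103010-54103069, the Hk1 probe on the minus strand at chr10:61732717-61732776, and the Rest probes on the plus strand at chr5:77711857-77711916 and chr5:77704280-77704339 (mm9, as in the files).
Ldha, position 970: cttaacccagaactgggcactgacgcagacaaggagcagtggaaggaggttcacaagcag
Ldha, position 351: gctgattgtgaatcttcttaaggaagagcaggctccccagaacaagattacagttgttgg
Hk1, position 2983: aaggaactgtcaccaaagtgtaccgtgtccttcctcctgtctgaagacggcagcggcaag
Rest, position 3400: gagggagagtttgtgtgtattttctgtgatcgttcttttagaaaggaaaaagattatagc
Rest, position 1208: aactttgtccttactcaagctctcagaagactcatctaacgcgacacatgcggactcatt

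No probe of the 8 genes passed the test. A ratio is given as log2 of mutant over control, and limma tested the 2 ratios of a probe against 0, with Benjamini-Hochberg adjustment over all 22266 tested probes and a threshold of 0.05. By this rule 0 of the 11 tested probes were called, where 0.382% of all tested probes were called (0.368% higher and 0.0135% lower). The lowest limma adjusted p among the 11 was 0.154, of an Hk1 probe. At an unadjusted limma p under 0.05 there were 4 of 11, those of Hk1, Oat, Smad3 and Acot7, beside 11.4% of all tested probes. All 4 had a mean ratio above 0. Of all 22266 tested probes 2528 had such a p in either direction, and 1817 of these had a mean ratio above 0 (8.16% of all tested probes).

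The ratios leaned upwards on array 1 and less so on array 2. Their median was 0.33 on array 1 and 0.03 on array 2, where the medians of all tested probes were 0.02 on both. The ratio was above 0 on both arrays for 6 of 11 probes, against 32.3% of all tested probes, and below 0 on both for 0 of 11, against 25.3%. In 10 of the 11 probes the ratio was larger on array 1, Smad3 being the exception, and the share of all tested probes was not computed for this. The test took probes well above background in either dye, so that a probe can enter through the mutant channel alone, as did the Hk1 probe at position 2983 and the Rest probe at position 3400.

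**Figure D1:**
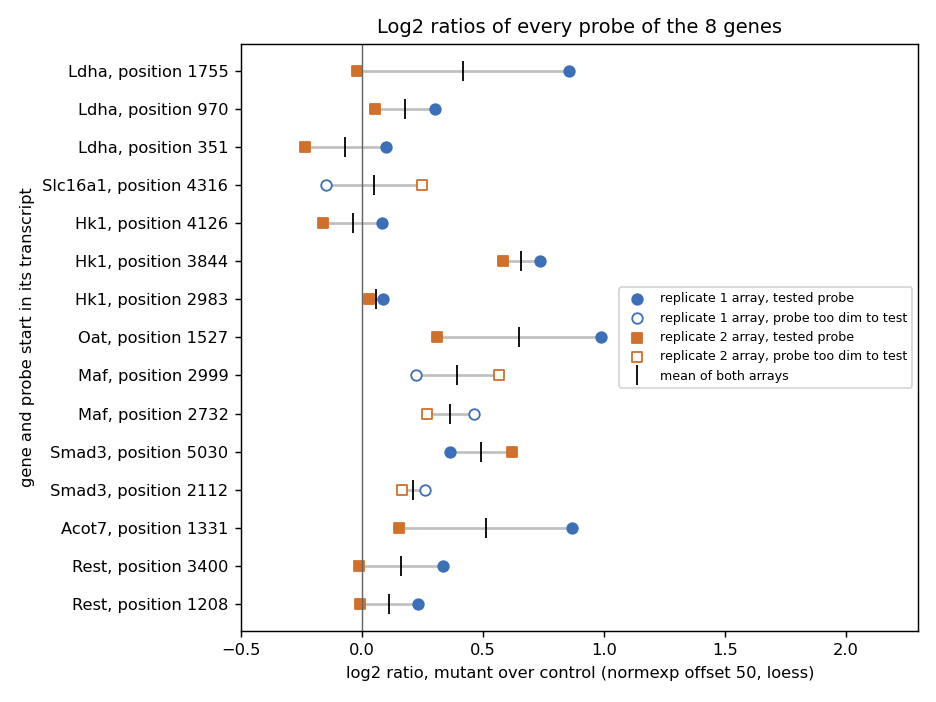
The log2 ratio of mutant over control on each array (horizontal axis) for each of the 15 probes (vertical axis), with circles for array 1, squares for array 2, open symbols for probes too dim to test and a tick at the mean. The Hk1 probe at position 3844 and the Smad3 probe at position 5030 lie right of 0 on both arrays, while the Ldha probe at position 1755 lies at 0.86 on array 1 and at -0.02 on array 2.

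The samples themselves show where the replicates parted. Levels are log2 signals of each dye after loess within arrays and quantile normalization between them, given below for control replicates 1 and 2 and then mutant replicates 1 and 2, and they compare samples for 1 probe but not probes with each other. The control sample of replicate 1 was the lowest of the 4 samples in 10 of the 11 tested probes, against 26.2% of all tested probes. The Hk1 probe at position 2983 and the Rest probes at positions 3400 and 1208 were not well above background in that sample. On array 1 they entered the test through the mutant channel alone, which favours a low control level there. Probes of the same gene are also not independent of each other. In RNA of whole islets, fewer cells of a type and less RNA per cell cannot be told apart. The control samples lay further apart from each other than the mean ratio of mutant over control in 8 of 11. The share of all tested probes for which this holds was not computed, so this count only describes the probes. Both mutant samples lay above both control samples in 5 of 11, against 21.9% of all tested probes, and the groups overlapped in the other 6. Among the 5 was the Hk1 probe at position 2983, with neither control sample well above background.

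**Figure D2:**
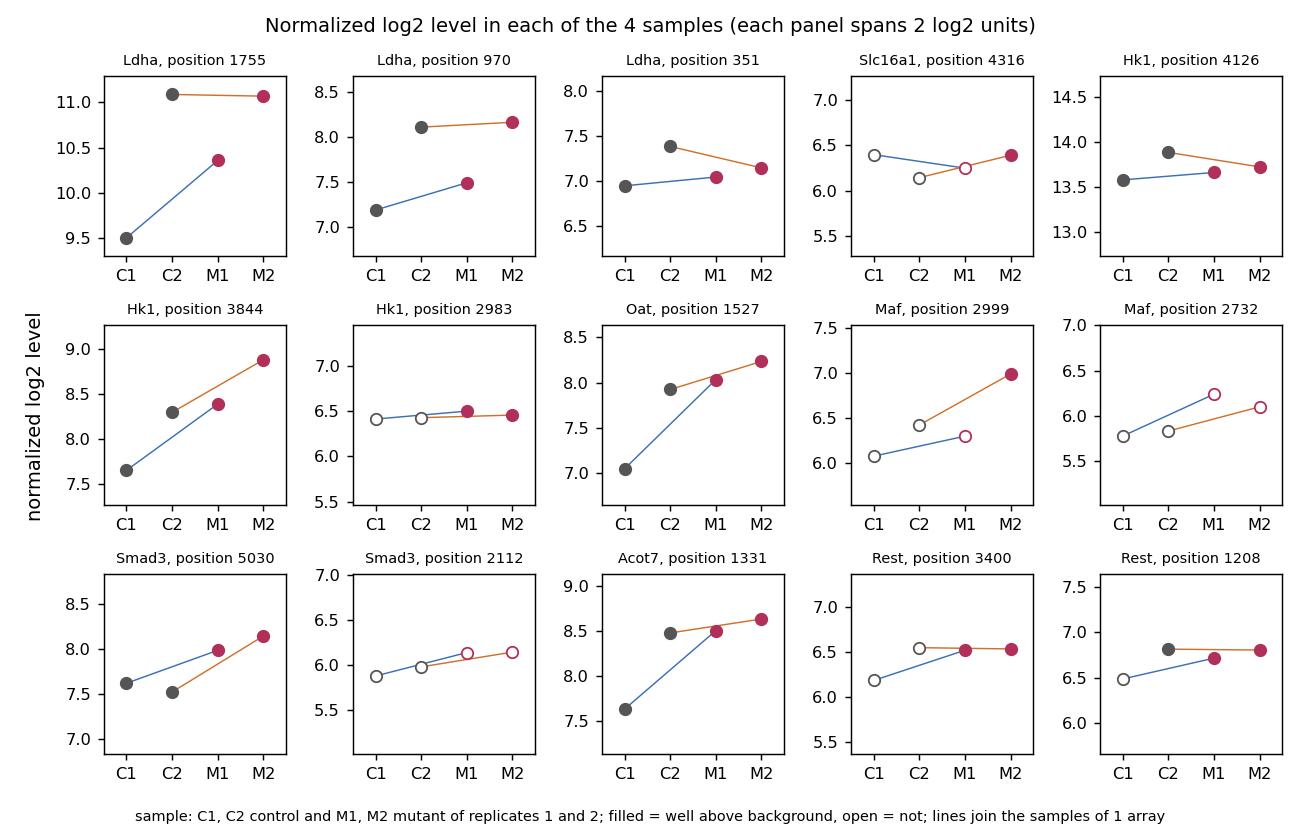
Normalized log2 levels (vertical axis, 2 log2 units in each panel) of the 15 probes in the control samples (C1, C2) and mutant samples (M1, M2), filled where the probe was well above background, with a line joining the 2 samples of 1 array. In the panels of Oat and Acot7 the first control sample stands apart below the other 3 samples, at 7.05 and 7.63.

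Ldha encodes the A subunit of lactate dehydrogenase, which converts pyruvate to lactate. At position 1755 (chromosome 7, 54110937 to 54110996) its levels were 9.50 and 11.09 in control and 10.36 and 11.07 in mutant samples. The control and mutant samples of replicate 2 were thus level, and the first control sample was low. The ratios were 0.86 and -0.02, with mean 0.42 ± 0.62 (SD, n = 2; limma adjusted p = 0.559). At position 970 the levels were 7.19 and 8.11 in control and 7.49 and 8.16 in mutant samples, and the ratios were 0.30 and 0.05, their mean being 0.18 ± 0.18 (SD, n = 2; limma adjusted p = 0.707). As at position 1755, both samples of replicate 2 lay above both samples of replicate 1. At position 351 the levels were 6.94 and 7.38 in control and 7.04 and 7.14 in mutant samples, so that the control samples enclosed the mutant samples. The mean ratio there was -0.07 ± 0.24 (SD, n = 2; limma adjusted p = 0.911), or 0.38 when arrays were centred on their medians instead of by loess.

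Of the partners of Ldha in lactate and pyruvate metabolism, 20 genes were tested, 0 passed, 10 were above 0 on both arrays and 1 was below 0 on both. Genes are counted by their brightest tested probe, and among all 17099 genes tested 33.1% were above 0 on both arrays, 25.1% were below, 0.439% rose and 0.0117% fell. Ldhb, the B subunit of the same enzyme, had ratios of -0.25 and 0.53. Bsg, the chaperone of monocarboxylate transporters at the plasma membrane, had 0.27 and -0.02. Slc16a3, another monocarboxylate transporter, had 0.08 and 0.13, was not well above background in either control sample, and its mutant channel was brighter by at least 1.07-fold. Such a bound sets the mean level of the bright group against the lowest level that counts as well above background, or the probe's own where that is higher. For Slc16a3 the probe's own level was higher in both control samples, so that its bound equals the measured fold. Such a bound is open to dye bias.

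Slc16a1 encodes the monocarboxylate transporter MCT1, which carries lactate and pyruvate across the plasma membrane. Its 1 probe (chromosome 3, 104462276 to 104462335) gave mean signals of 40.2 and 34.3 in the control samples over local backgrounds of 29 and 26. In the mutant samples the signals were 69.5 and 95.2 over backgrounds of 55 and 56.5. It was well above background in 1 sample, the mutant of replicate 2, and was not tested. The ratios were -0.15 and 0.25, and in Agilent's processed signals, which carry no offset, they were -0.68 and 1.78. No fold is given, since the mean level of the mutant samples does not exceed the lowest level that counts as measured.

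Hk1 encodes hexokinase 1, which phosphorylates glucose even at low concentrations. The probe at position 3844 (chromosome 10, 61731856 to 61731915, minus strand) had levels of 7.65 and 8.30 in control and 8.39 and 8.88 in mutant samples. Both mutant samples lay above both control samples, with a gap of 0.09 between the lower mutant and the higher control sample. The ratios were 0.73 and 0.58, a mean of 0.66 ± 0.11 (SD, n = 2), which is 1.58-fold (limma unadjusted p = 0.00296, adjusted p = 0.154). It was the closest of the 11 probes to the threshold. With a robust prior trended on mean brightness in limma it passed (adjusted p = 0.0350), a setting in which 2.31% of all tested probes were called higher. It did not pass with a robust prior trended on the mean ratio (limma adjusted p = 0.235), an alternative added after seeing the data. With median centring it passed (limma adjusted p = 0.00115). In the other settings with a test its adjusted p ran from 0.0578 to 0.740.

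The other probes named Hk1 gave ratios closer to 0, and the difference between the probes was not tested. At position 2983 the ratios were 0.09 and 0.03, and the control samples were not well above background on either array. The bound for the mutant channel there, 1.04-fold, equals the measured fold, as for Slc16a3, and the processed signals gave 0.44 and 0.47. A probe that the files name Hk1, at position 4126 of a cDNA, is placed by them on chromosome 5 (22118404 to 22118463), while RefSeq has Hk1 on chromosome 10. Whether it reports Hk1 transcripts was not tested. Its levels were 13.58 and 13.88 in control and 13.66 and 13.72 in mutant samples, with a mean ratio of -0.04 ± 0.17 (SD, n = 2; limma adjusted p = 0.952), 0.04 in the processed signals and 0.93 with median centring. Without this probe, an alternative chosen after the values were seen, the median of the mean ratios of the tested probes was 0.30 in place of 0.18. Of the other hexokinase genes 3 of 5 were tested and 0 passed, with Hk2 and Hk3 too dim.

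Oat encodes ornithine aminotransferase, a mitochondrial enzyme that converts ornithine and supplies proline and glutamate. Its 1 probe (chromosome 7, 139749726 to 139749785, minus strand) had levels of 7.05 and 7.92 in control and 8.03 and 8.23 in mutant samples. The mutant samples lay above the controls, and 3 of the 4 samples lay close together with the first control sample below them. The ratios were 0.99 and 0.31, a mean of 0.65 ± 0.48 (SD, n = 2), 1.57-fold (limma unadjusted p = 0.0152, adjusted p = 0.299). Of 10 genes of ornithine, proline and polyamine metabolism, 7 were tested and 0 passed, with 2 above and 2 below 0 on both arrays. Odc1, which decarboxylates ornithine to putrescine, had ratios of -0.04 and -0.49 (mean -0.26, and 0.58 with median centring), and Arg2, the mitochondrial arginase, was too dim to test.

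Acot7 encodes a thioesterase that splits long-chain acyl-CoA into fatty acid and coenzyme A. Its 1 probe (chromosome 4, 151645802 to 151645861) had levels of 7.63 and 8.48 in control and 8.50 and 8.63 in mutant samples. As for Oat, the groups did not overlap, and the first control sample stood below the other 3, which spanned less than the step up to them. The ratios were 0.87 and 0.15, a mean of 0.51 ± 0.51 (SD, n = 2), 1.43-fold (limma unadjusted p = 0.0418, adjusted p = 0.415). Among 12 other acyl-CoA thioesterase genes 7 were tested and 0 passed, with 3 above and 3 below 0 on both arrays. The peroxisomal Acot8 had ratios of -0.46 and -0.17 (0.45 as a mean with median centring), and the mitochondrial Acot9 had 0.35 and 0.31 (limma adjusted p = 0.428).

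Maf encodes c-Maf, a leucine zipper transcription factor of alpha cells and of several blood lineages, whose relative Mafa is the factor of mature beta cells. At position 2999 (chromosome 8, 118227736 to 118227795, minus strand) its mean signals were 29.2 and 46.5 in the control samples over local backgrounds of 30 and 30, and 74.5 and 181 in the mutant samples over 57 and 58. It was well above background in the mutant of replicate 2 alone and was not tested, with ratios of 0.22 and 0.56. The mutant channel was at least 1.17-fold brighter by its mean over both arrays, although it was measured on 1 of them. At position 2732 (chromosome 8, 118207273 to 118207332) Maf was not well above background in any of the 4 samples. Of the other large and small Maf genes 5 of 6 were tested and 0 passed, with 0 above and 3 below 0 on both arrays. Mafa had ratios of -0.01 and 0.25.

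Smad3 encodes the transcription factor that activin and transforming growth factor beta (TGF-beta) receptors phosphorylate. At position 5030 (chromosome 9, 63494574 to 63494633, minus strand) its levels were 7.62 and 7.52 in control and 7.99 and 8.14 in mutant samples. Here the controls lay close together, 0.10 apart, and the gap of 0.36 up to the mutant samples was wider than the spread within either group. The ratios were 0.36 and 0.62, a mean of 0.49 ± 0.18 (SD, n = 2), 1.41-fold (limma unadjusted p = 0.0137, adjusted p = 0.289). It was also the 1 tested probe whose lowest sample was the control of replicate 2. At position 2112 Smad3 was not well above background in any sample.

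Smad3, which did not pass the test, carries signals of the TGF-beta pathway, in which 1 gene passed. Of 16 genes of TGF-beta ligands, receptors, Smads and inhibitors 14 were tested, 9 were above 0 on both arrays, 0 were below and 1 rose. That gene was Tgfb3, a TGF-beta ligand, whose ratios were 1.19 and 1.64 (mean 1.41 ± 0.32, SD, n = 2; limma adjusted p = 0.0446). This call was lost with an offset of 0, the processed signals, the series matrix and the mean over the probes of a gene. It was also lost with a robust prior trended on the mean ratio and in both separate-channel fits. In these settings the limma adjusted p ran from 0.0752 to 0.740. The receptor gene Tgfbr1 had ratios of -0.29 and 0.28 (mean -0.01, and 0.69 with median centring). Among the other Smads, Smad2, which these receptors also phosphorylate, had -0.02 and 0.02, with means from -0.14 to -0.03 in the processed signals, the series matrix and the fit without an offset. Smad4, the shared partner, had 0.21 and 0.24 at the brighter of its 2 tested probes, whose mean ratios were 0.22 and, at the other, -0.09. The inhibitory Smad7 had 0.03 and 0.36.

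Rest encodes a zinc finger repressor that silences neuronal genes, including many of the exocytosis genes that beta cells share with neurons. At position 3400 its mean signals were 30.6 and 48 in the control samples over backgrounds of 30 and 23, and 87.5 and 121 in the mutant samples over 57 and 56. The control samples were not well above background, and the ratios were 0.33 and -0.01 (mean 0.16 ± 0.25, SD, n = 2; limma adjusted p = 0.760). By its mean over both arrays the mutant channel was at least 1.04-fold brighter, although on array 2 it was not the brighter channel. In the processed signals the same probe gave 2.28 and 0.11, so that its ratio on array 1 differs widely between these ways of taking off the background. At position 1208 the levels were 6.48 and 6.81 in control and 6.72 and 6.80 in mutant samples, with a mean ratio of 0.11 ± 0.17 (SD, n = 2; limma adjusted p = 0.837). On array 2 both probes of Rest gave a ratio of -0.01.

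Of 10 cofactors of Rest, all tested, 0 passed, with 1 above and 3 below 0 on both arrays. Rcor1 had ratios of -0.21 and -0.10 and Sin3a -0.14 and -0.05, and with median centring their means were 0.65 and 0.47. Of 20 genes that Rest is known to bind, all tested, 0 passed, 9 were above and 4 were below 0 on both arrays, and their median ratios were 0.13 and 0.24. None of the targets was called in either direction, at a limma adjusted p of 0.0753 or more, where 0.439% of all genes rose and 0.0117% fell. At an unadjusted limma p under 0.05, in either direction, there were 8 of the 20, beside 2168 of all 17099 genes tested. The list was chosen with earlier results of these data known.

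**Figure D3:**
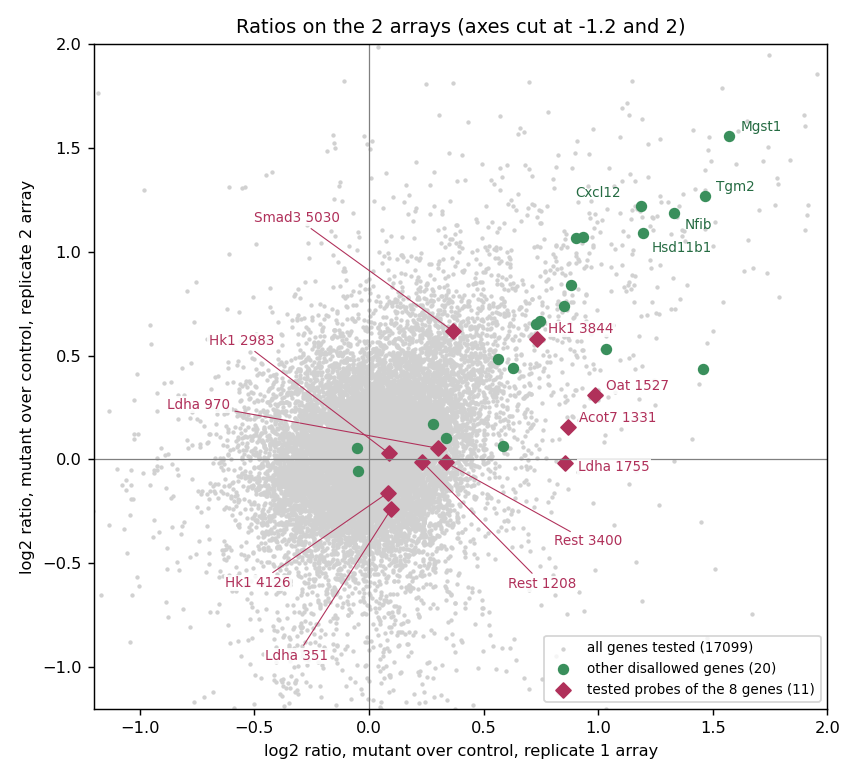
Log2 ratios of mutant over control on array 1 (horizontal axis) and array 2 (vertical axis) for the 11 tested probes of the 8 genes (diamonds, with the probe's position), the 20 other disallowed genes (circles) and all 17099 tested genes (grey). Oat, Acot7 and the Ldha probe at position 1755 lie far to the right and low, with 0.31, 0.15 and -0.02 on array 2. The called disallowed genes such as Mgst1 (1.57 and 1.56) lie near the diagonal, and the test itself favours probes whose 2 ratios agree.

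The 8 genes can be set beside 20 further disallowed genes, a list chosen with earlier results of these data known. All 20 were tested, 18 were above 0 on both arrays, 1 was below 0 on both (Arhgdib), 5 rose and 0 fell, and their median ratios were 0.86 and 0.66. Mgst1, a microsomal glutathione transferase, had levels of 7.52 and 8.08 in control and 9.09 and 9.63 in mutant samples, and rose by 1.56 ± 0.012 (SD, n = 2; limma adjusted p = 0.0297). Tgm2, a transglutaminase, rose by 1.37 ± 0.14, the transcription factor gene Nfib by 1.26 ± 0.10 on 1 of its 5 tested probes, the chemokine gene Cxcl12 by 1.20 ± 0.025 on 1 of 2 probes, and Hsd11b1, which reactivates glucocorticoids, by 1.14 ± 0.076 (SD, n = 2 each). The Hsd11b1 probe was not well above background in the first control sample. Selenbp1, a selenium-binding protein gene, had 0.93 and 1.07 and did not pass (limma adjusted p = 0.061). All 5 calls were lost, with limma adjusted p from 0.148 to 0.269 for these genes, with an offset of 0, with the processed signals and with the series matrix, and 0 genes of the list passed in either separate-channel fit, with a robust prior trended on the mean ratio or with the mean over all probes of a gene. Whether the 8 genes differ from these 20 was not tested.

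**Figure D4:**
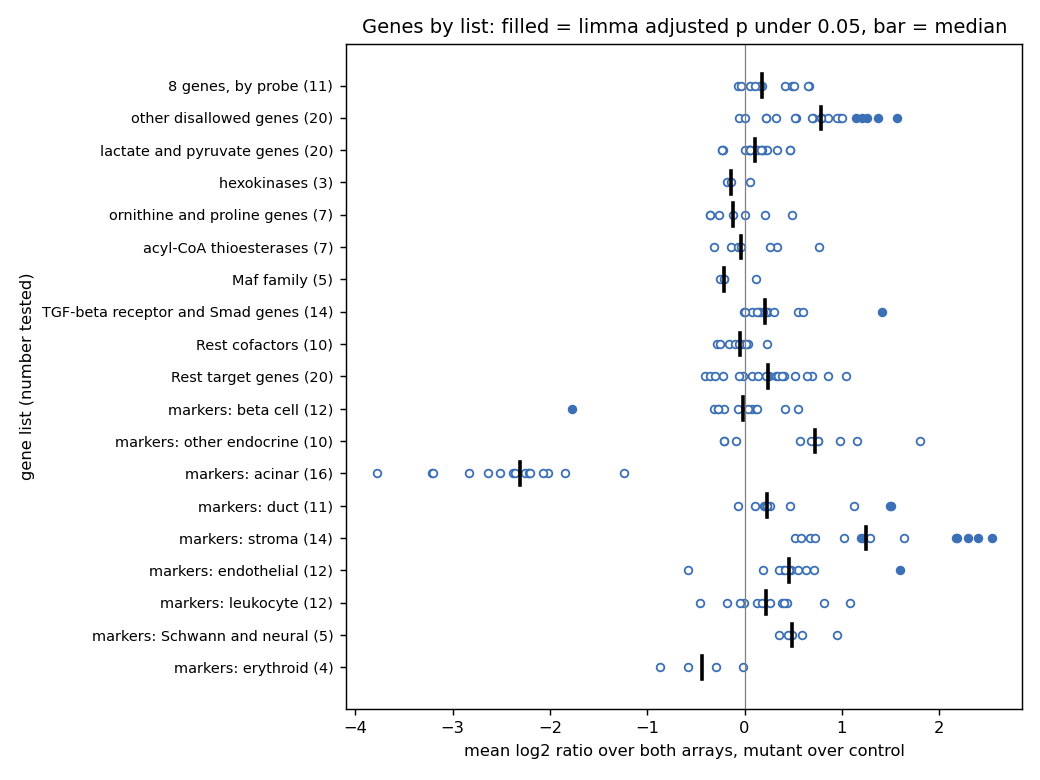
Mean log2 ratio over both arrays (horizontal axis) of every tested gene of each list (vertical axis, with the number tested), filled where limma's adjusted p was under 0.05, with a bar at the list's median. The 11 probes of the 8 genes have their median at 0.18 and no filled point, the 20 other disallowed genes hold 5 filled points, and 14 stromal markers lie right of 0.

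Markers of other islet and pancreatic cells moved on the same arrays, and their part in the values above was not tested. Stromal markers, of which 14 of 15 were tested and 7 rose, had median ratios of 1.34 and 1.13. Their levels were summed on the linear scale, where the brightest genes weigh most, and each sum is given as its log2, as for the lists below. This summed level was 13.0 and 15.1 in control and 14.7 and 16.4 in mutant samples. The first control sample was thus lowest here as it was for 10 of the 11 probes. In that sample 10 of the 14 were well above background, and 14 in each of the others. The markers of other endocrine cells, 10 of 10 tested with 0 calls, had median ratios of 1.16 and 0.15. Their summed levels were 16.7 and 18.1 in control and 18.2 and 18.3 in mutant samples, the first control sample again being lowest. Beta cell markers, 12 of 12 tested and well above background in every sample, had median ratios of -0.58 and 0.25. Their summed levels were 19.1 and 18.5 in control and 18.8 and 19.4 in mutant samples. They gave 1 call, the ion channel gene Trpm5, which fell.

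Acinar markers, 16 of 16 tested with 0 calls, had median ratios of 0.42 and -5.10, and summed levels of 20.3 and 21.6 in control and 20.8 and 16.9 in mutant samples. The mutant sample of replicate 2 thus lay far below the other 3 in these markers. The lowest ratio among the 11 probes on array 2 was -0.24 (Ldha at position 351). Whether the acinar difference bears on the 11 probes was not tested. Of 12 duct markers 11 were tested and 2 rose, and of 12 endothelial markers 12 were tested and 1 rose. Among leukocyte markers 12 of 14, among Schwann and neural markers 5 of 8, among erythroid markers 4 of 6 and among adipose markers 1 of 6 were tested, with 0 calls in each. The summed level of the duct list ran from 13.5 to 14.0 in the control and from 13.8 to 14.3 in the mutant samples, and that of the endothelial list from 13.4 to 13.5 and from 13.5 to 13.7. With an offset of 0, the processed signals, the series matrix, a robust prior trended on the mean ratio and both separate-channel fits 0 of the 22266 probes passed limma's test, so the calls on stromal, duct and endothelial markers and on Trpm5 were lost there.

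For each gene with a tested probe, the 2 genes whose 4 levels ran most like its own were found by the Euclidean distance between levels centred on their mean, over 4 samples. Smad3 was nearest to Zfp947 (distance 0.0463) and Cxcl10 (0.0474), and Agpat4 was 1 of the 2 nearest to Acot7 (0.0922). Ldha at position 1755 was nearest to a probe without a gene symbol (0.0499) and to Ifitm3 (0.14), an antiviral membrane protein gene whose ratios were 0.78 and -0.10. Rest at position 1208 was nearest to Zfp41 (0.0204) and Snapc3 (0.0239), and Pros1 was 1 of the 2 nearest to the Hk1 probe at position 3844 (0.0775). The Hk1 probe placed on chromosome 5 was nearest to 2 probes without a gene symbol. These distances describe the 4 samples alone.

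**Figure D5:**
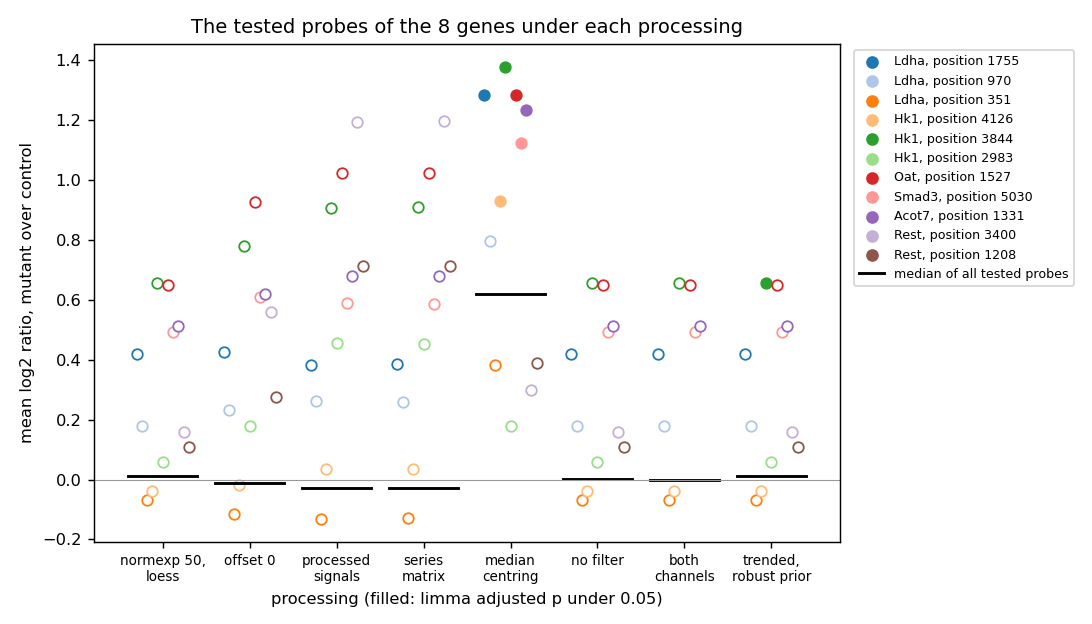
Mean log2 ratio of mutant over control (vertical axis) of the 11 tested probes of the 8 genes under 8 ways of processing (horizontal axis), filled where limma's adjusted p was under 0.05, with a bar at the median of all tested probes. Filled points appear with median centring, where the bar itself stands at 0.62, and for the Hk1 probe at position 3844 with a robust prior trended on mean brightness.

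The calls on the 8 genes changed most with the way the dyes were balanced. With median centring in place of loess 6 of the 11 probes were called, those of Hk1 at positions 3844 and 4126, Oat, Smad3, Acot7 and Ldha at position 1755. In that setting 29.9% of all tested probes were called higher and the median of all tested probes was 0.62. Relative to that median the Hk1 probe at position 3844, at 1.38, stood 0.76 higher and the Hk1 probe at position 4126, at 0.93, stood 0.31 higher.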

How the data were processed

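Islet RNA of 2 control and 2 RbΔK7 mutant samples was hybridised to 2 arrays. Per the file headers, each spot has deposited intensity values for its mean signal, its median local background and a processed signal that the software corrected and dye-normalized. The deposited log10 ratios are red (mutant) over green (control), and those in the authors' series matrix equal them (largest difference 0). The submitters' processing notes name Agilent Feature Extraction 10.7.3.1. Other values per spot that the authors deposited are flags, of which those for signals well above background, saturation and non-uniform spots were used.

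Background correction in limma 3.58.1 (R 4.3.3) used normexp and an offset of 50, which draws the ratios of dim probes towards 0, and log2 ratios were normalized by loess (span 0.3, control spots at weight 0). Gene spots with non-uniformity flags (4 on each array) were dropped, 0 were saturated, and repeated spots were averaged. Probes were tested when well above background in 1 dye or the other on both arrays, with lmFit and eBayes, two-sided, Benjamini-Hochberg over 22266 probes. With 2 arrays 1 residual degree of freedom stands behind each probe. Levels per dye were normalized between arrays by Aquantile. The fit was also run on ratios simulated from its own fitted prior, which checked its estimates of the mean alone. The ratio pairs mutant and control of 1 array, and that the samples of a number belong together rests on their shared array. Symbols were updated through a RefSeq table of GRCm38.p6, used for names only. Of 55681 probes 27730 had a current symbol, 618 were matched by a synonym and 2885 by accession, and 24448 kept the name in the files.

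The members and lists were chosen with earlier results of these data known. The text names every probe of the members, fixed counterparts from each family list, every gene of the family lists that passed, the 6 further disallowed genes with the largest mean ratio of 1 sign on both arrays, and the 2 nearest genes of each tested member. Some genes under this rule are not reported here. The alternatives were an offset of 0, processed signals, median centring, the series matrix, no filter, both dyes well above background, a robust prior trended on mean brightness (and, added after seeing the data, on the mean ratio), separate-channel fits with and without the array as a block, each replicate left out, and the mean over probes.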

Additional observations from a re-analysis of the deposited data

How the results depend on the processing

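The count of called probes of the 8 genes was 0, and it was 6 with median centring and 1 with a robust prior trended on mean brightness. It remained 0 with a robust prior trended on the mean ratio (added after seeing the data), an offset of 0, the processed signals, the series matrix, no filter, both dyes above background, and the separate-channel fits with and without the replicate block. The median of their mean ratios was 0.18, and 0.43 with an offset of 0, 0.59 with the processed signals and with the series matrix, 0.93 with median centring and 0.46 with both dyes above background. With single replicates left out it ran from 0.03 (without replicate 1) to 0.33 (without replicate 2). The count of other disallowed genes that rose was 5, and it was 0 with an offset of 0, the processed signals, the series matrix, the mean over the probes of a gene, a robust prior trended on the mean ratio, and the separate-channel fits with and without the replicate block. It was 17 with median centring, 11 with no filter and 12 with a robust prior trended on mean brightness. Median centring moved the median of all tested probes to 0.62, and signs turned there for Ldha at position 351 (0.38), Hk1 at position 4126 (0.93), Odc1 (0.58), Acot8 (0.45), Tgfbr1 (0.69), Rcor1 (0.65) and Sin3a (0.47), of which the Ldha probe, Odc1, Acot8 and Sin3a stayed below that median. Hk1 at position 4126 was also 0.0364 with the processed signals and 0.0357 with the series matrix, and Smad2 was -0.0328 with an offset of 0, -0.134 with the processed signals and -0.135 with the series matrix. The cause of these changes was not tested, other than that fewer or more probes were tested under the changed filters. Of the probes 8 of 11 were well above background in all 4 channels, and the first control sample was lowest in 8 of 11 when levels were taken from processed signals scaled to their 75th percentile. The number of arrays limits the precision, and no dye swap was made.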
